A study of Mus musculus with 39 samples.

Results

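The 28 genes described here make cholesterol, sense it or move it. They were taken by symbol from a list for cholesterol synthesis and sterol regulation, and all 28 were found among the 54735 genes of both the liver and the spleen table. By role, 18 code for enzymes of the synthesis pathway, 4 for the control of the SREBP transcription factors (Srebf2, Scap, Insig1 and Insig2) and 6 for sterol transport, export, storage or sensing (Stard4, Nr1h2, Abca1, Abcg5, Abcg8 and Soat2). The list was set by symbol and not by a measured value, but with earlier results of these data known.

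Cholesterol is built from acetyl units through mevalonate, isoprenoids, squalene and lanosterol. When sterols in the endoplasmic reticulum run low, SCAP escorts SREBP-2 to the Golgi, where it is cut, and the freed fragment enters the nucleus and switches on the genes of the pathway. INSIG1 and INSIG2 hold SCAP back when sterols are plentiful, while the liver X receptors, of which Nr1h2 encodes one, switch on exporters such as ABCA1, ABCG5 and ABCG8.

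Messenger RNA was sequenced from liver and spleen of C57BL/6 mice aged 4 weeks. Wild-type mice and mice with a knockout of SXR/PXR, a nuclear receptor for drugs and steroids encoded by Nr1i2, had received either the persistent pollutant PCB-153 during perinatal life and until 4 weeks, at a daily dose of about 54 µg per kg, or DMSO alone (vehicle). The 4 groups were therefore wild type with vehicle, wild type with PCB-153, knockout with vehicle and knockout with PCB-153, with 5 libraries each in both tissues except for 4 wild-type vehicle spleens. Neither the deleted exons nor the litters of the mice could be read from the labels, so p-values measure the spread between these libraries only.

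Liver libraries held 15.23 to 28.65 M reads assigned to genes, and spleen libraries held 16.10 to 29.52 M reads. Nr1i2 was still counted in knockout livers, at 449 to 1155 normalised reads against 1019 to 1939 in wild type. In spleen it was at 0 to 2.27 in wild type and at 42.9 to 62.8 in the spleens labelled knockout, so genotype directions in spleen rest on the labels. All 5 hepatocyte markers were high in liver and all 5 B and T cell markers in spleen, and 5 spleens carried RNA of a neighbouring organ. The hepatocyte gene Alb stood at 1008 in wild-type vehicle spleen 1, 2846 in wild-type PCB-153 spleen 1 and 8921 in labelled-knockout vehicle spleen 4, and the pancreatic gene Cpa1 at 605 and 5091 in labelled-knockout PCB-153 spleens 1 and 4. In whole tissue, fewer cells of a type and less RNA per cell cannot be told apart.

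The promoters of these genes share a sequence feature that the choice of genes did not use. RefSeq promoter windows of build GRCm38.p6 were matched for 23 of the 28 members, and the 250 bases before each start were searched on both strands for the box of the factor NF-Y, CCAAT, which reads as ATTGG on the opposite strand. NF-Y binds beside SREBP-2 at many sterol-regulated promoters. The box was in 18 of 23 members (78.3%) and in 14 of the 15 matched synthesis enzymes, against 37.5% of 27025 genes. The classical sterol regulatory element, TCACNCCAC, was in 1 of 23 members, Hmgcs1, and in 1.22% of genes. The E-box CACGTG was in 6 of 23 members (26.1%) and in 6.86% of genes. A match is a description of letters, and a window without one says nothing of whether a factor binds there. Of the 4 windows printed below, Hmgcs1 is shown because it holds both elements. Mvd and Sc5d are shown because each holds the box without the sterol element and their RNA followed that of the enzyme gene Sqle between livers (r = 0.79 each). Ebp is shown because it holds the box at 2 places but its RNA did not follow that of Sqle (r = -0.14). Tm7sf2 and Nsdhl also hold the box, and their correlation with Sqle did not pass over all genes either (r = 0.39 and 0.72, described below). Sqle itself had no matched window. Each printed window is given 5′ to 3′ on the gene's strand, with the sterol regulatory element and the CCAAT boxes of either strand in capitals. The windows are chr13:119690101-119690350 (plus strand) for Hmgcs1, chr8:122443423-122443672 (minus) for Mvd, chr9:42264301-42264550 (minus) for Sc5d and chrX:8193513-8193762 (minus) for Ebp, and no annotated exon overlaps them.
Hmgcs1: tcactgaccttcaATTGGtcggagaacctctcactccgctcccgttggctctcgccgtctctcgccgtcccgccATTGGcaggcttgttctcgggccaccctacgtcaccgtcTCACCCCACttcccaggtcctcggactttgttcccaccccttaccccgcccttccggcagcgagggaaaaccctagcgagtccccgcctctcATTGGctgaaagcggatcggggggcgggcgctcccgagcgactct
Mvd: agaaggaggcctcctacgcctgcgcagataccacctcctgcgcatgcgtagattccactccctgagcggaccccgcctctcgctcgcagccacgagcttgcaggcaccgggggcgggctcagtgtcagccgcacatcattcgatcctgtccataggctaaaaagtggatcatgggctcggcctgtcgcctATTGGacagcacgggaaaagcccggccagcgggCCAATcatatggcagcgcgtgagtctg
Sc5d: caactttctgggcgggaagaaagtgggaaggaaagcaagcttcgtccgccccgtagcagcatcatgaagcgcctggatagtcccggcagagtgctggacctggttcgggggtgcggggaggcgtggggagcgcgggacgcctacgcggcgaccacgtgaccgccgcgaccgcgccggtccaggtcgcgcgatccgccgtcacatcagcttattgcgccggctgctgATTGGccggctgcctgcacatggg
Ebp: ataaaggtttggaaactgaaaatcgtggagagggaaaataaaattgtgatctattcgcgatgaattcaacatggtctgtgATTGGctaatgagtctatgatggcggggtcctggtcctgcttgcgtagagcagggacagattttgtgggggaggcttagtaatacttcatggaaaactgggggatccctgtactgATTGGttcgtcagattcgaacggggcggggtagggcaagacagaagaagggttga

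In wild-type vehicle liver the pathway was expressed at high levels. Genes were compared per kb of exon, with all annotated exons of a gene merged. Highest was Hmgcs1, which condenses acetyl units ahead of mevalonate, at 2541 ± 446 normalised reads (SD, n = 5). The late desaturase Sc5d followed at 2050 ± 422 (n = 5). The sterol isomerase Ebp stood at 1636 ± 81.8, the thiolase Acat2 at 1609 ± 135 and the SREBP brake Insig1 at 1488 ± 447 (n = 5 each), and no 2 neighbours in this order differed beyond their spread. The lowest were Lss, which closes squalene epoxide into lanosterol, at 119 ± 16 and the exporter Abca1 at 137 ± 40.0 (n = 5 each). They also had the longest merged exons of the members, 10.8 and 10.4 kb, so their rank depends on the annotated length. Before division by length, Lss stood at 1288 ± 173, and the lowest were Mvk at 526 ± 82.7 and Mvd at 534 ± 149 (n = 5 each). In spleen the order was different, with Nr1h2 at 417 ± 24 and Srebf2, the gene of SREBP-2 itself, at 375 ± 21.5 on top (n = 4 each), followed by the phosphomevalonate kinase gene Pmvk at 211 ± 31.3 and Acat2 at 210 ± 14.2, which did not differ beyond their spread.

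All 18 synthesis enzymes had a higher level per kb in liver than in spleen. The ratio of the 2 means was 25.8 for Sc5d, 16.5 for Hmgcs1, 12.7 for Msmo1, a C4 demethylating oxidase, 12.0 for Insig1 and 10.2 for Insig2. It was smallest among the enzymes for Pmvk, at 2.47, and Mvd, at 2.59. Nr1h2 and Srebf2 were the exceptions in the other direction, with ratios of 0.403 and 0.392, while Abca1 was at 1.39. The tables of the 2 tissues were normalised separately, so these ratios are given as a description with no test.

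**Figure D1:**
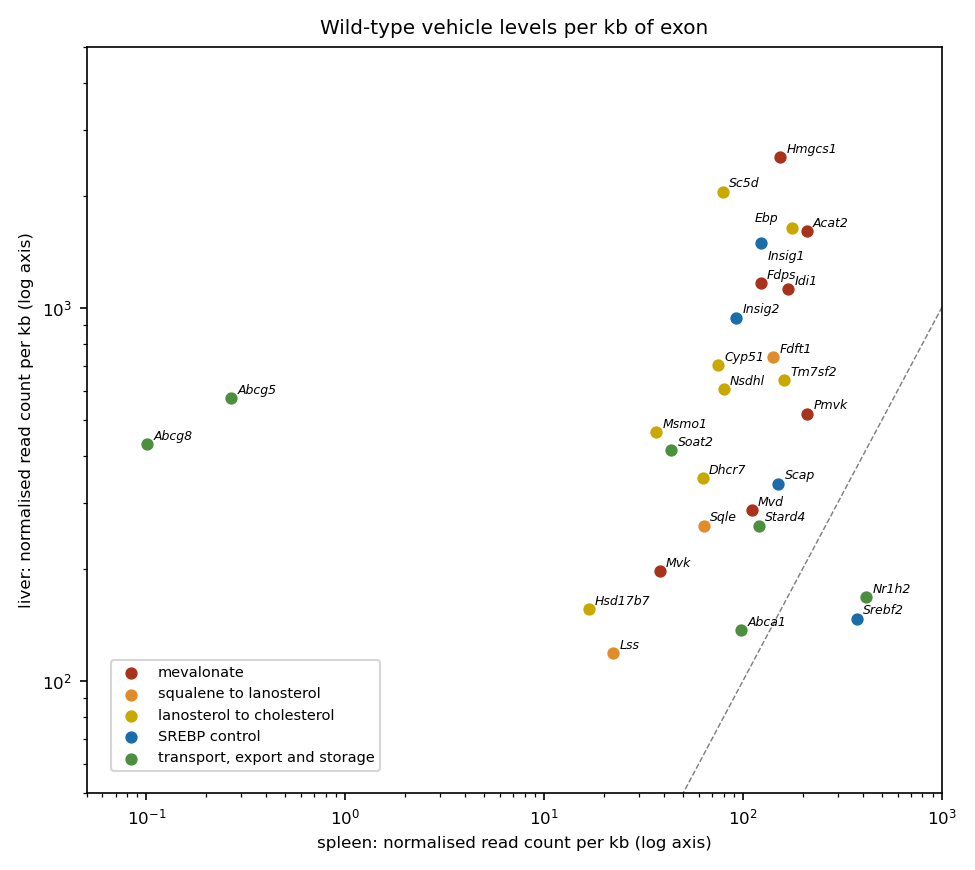
Mean level of each member in wild-type vehicle spleen (x axis) and liver (y axis), in normalised reads per kb of exon on log axes, coloured by role; the dashed line marks equal levels. Srebf2 and Nr1h2 lie below the line, Abcg5 and Abcg8 are near 0 in spleen, and the synthesis enzymes all lie above the line, from a ratio of 2.47 for Pmvk to 25.8 for Sc5d.

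The sterol exporters Abcg5 and Abcg8, whose products pair up to send sterols into bile, were the only members not tested in spleen. Over the 19 spleens they had 30 and 53 reads, of which labelled-knockout vehicle spleen 4 alone held 21 and 29. That library also carried the most Alb. It had 2.17 Abcg5 and 3.0 Abcg8 normalised reads per 1000 of Alb, where the livers ranged from 0.83 to 2.0 and from 0.699 to 1.60. The other 18 spleens held 9 and 24 reads between them.

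The livers were compared first between genotypes under vehicle, which asks what loss of the receptor does to the pathway without exposure. The mean was higher in knockout for 22 of 28 members, with a median log2 difference of 0.15, where 51.2% of all 16155 genes tested had a higher mean and the median was 0.01. None of these differences passed the test one by one. Of the 28 members 0 had a limma adjusted p under 0.05, where 0.607% of all genes were called, and 3 (10.7%) had an unadjusted p under 0.05, where 12.6% of all genes did. edgeR and DESeq2 also called 0 members. The count and the median moved with single libraries. Without knockout vehicle liver 4, 18 of 28 members were higher and the median was 0.07, and without liver 3 of that group 24 were higher and the median was 0.27.

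The members with the smallest p under vehicle were a desaturase, an exporter and a cyclase. Sc5d, which desaturates lathosterol, stood at 12846, 8804, 7645, 9385 and 11199 normalised reads in wild-type vehicle livers 1 to 5 and at 12009, 13083, 11580, 15556 and 12969 in knockout ones. Every knockout liver was above 4 of the 5 wild-type livers, but the groups overlapped at wild-type liver 1. The log2 difference was 0.40 ± 0.16 (SE, limma adjusted p = 0.278). For Abcg5 it was 0.54 ± 0.23 (adjusted p = 0.338) and for Lss 0.51 ± 0.23 (adjusted p = 0.361), both by limma. Only Acat2, which joins acetyl units at the head of the pathway, had groups that did not overlap, at 3542 to 4425 in wild type and 4450 to 5418 in knockout, where 1.39% of all genes tested lay apart in that direction. Its log2 difference was 0.22 ± 0.11 with a limma adjusted p of 0.426. Of its 50-base words 39.1% also occur in Acat3 or Tcp1, so its count is uncertain. The share of words found in other genes was 26.5% for Fdft1, 26.2% for Fdps, 25.3% for Idi1 and 11.6% for Hmgcs1. Their counts call for the same caution in both tissues. Summed bile duct cell markers, all 5 of them detected, were also lower in the knockout vehicle livers, at 584 to 760 against 771 to 1528, and their part in these differences was not tested.

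The genotypes were then compared after PCB-153. The mean was higher in knockout for 26 of 28 members, among them all 18 synthesis enzymes, with a median log2 difference of 0.26 over the members and 0.30 over the enzymes, against 50.4% and 0.00 for all genes. By limma 0 of 28 members were called, where 1.45% of all genes were, and 6 (21.4%) had an unadjusted p under 0.05, where 10.7% of all genes did. edgeR called 0 members and DESeq2 called 1, Lss, where DESeq2 called 1.95% of the genes it tested. The ranges of 0 of 28 members lay apart with knockout higher, where those of 1.21% of all genes did. Without knockout PCB-153 liver 5 the counts were 21 of 28 members and 16 of 18 enzymes, and the median of the members was 0.11. Without liver 1 of that group the median was 0.40, and without both it was 0.24, with 22 members and 17 enzymes higher. Most enzymes also varied together between livers of a group, so these directions, here and under vehicle, are not independent of each other.

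By role, the members divided as follows in this comparison. The 7 mevalonate genes had log2 differences of 0.11 to 0.63 (median 0.39), the 3 genes from squalene to lanosterol 0.25 to 0.76 (median 0.31) and the 8 later genes 0.00 to 0.55 (median 0.28). The 4 genes of SREBP control had -0.38 to 0.24 and the 6 of transport and storage -0.11 to 0.64. Insig2 (-0.38) and the cholesterol esterifying enzyme Soat2 (-0.11) were the 2 members with a lower mean.

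Lss (chr10:76531588-76557138, GRCm38) had the smallest p of all members in liver. Its normalised reads in wild-type PCB-153 livers 1 to 5 were 1378, 1685, 1181, 1021 and 1758, and in knockout PCB-153 livers 1368, 2765, 2004, 2118 and 4291. All knockout livers but liver 1 were above every wild-type liver, and liver 5 was far above the others. The log2 difference was 0.76 ± 0.23 (SE, limma adjusted p = 0.127, unadjusted p = 0.00314). It was 0.84 with an adjusted p of 0.0221 by DESeq2, the same values as in the authors' deposited table, and 0.84 with an adjusted p of 0.0808 by edgeR. Over the 20 alternatives the adjusted p ran from 0.0221 to 0.305, and it was also under 0.05 in limma without knockout PCB-153 liver 1 (0.0306). In limma on the compared groups only it was 0.248. The main fit shares 1 estimate of the spread over the 4 groups. In normalised reads the SD of Lss was 1112 in knockout PCB-153 livers. It was 173, 317 and 460 in wild-type vehicle, wild-type PCB-153 and knockout vehicle livers. Under vehicle, Lss stood at 1416, 1160, 1051, 1445 and 1366 in wild-type and at 2075, 1542, 1371, 2535 and 1798 in knockout livers.

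The enzymes of other steps are given from the entry of the pathway to squalene epoxide. Hmgcs1 stood at 12622, 10026, 10448, 7944 and 17961 in wild-type PCB-153 livers 1 to 5 and at 7534, 21858, 13720, 11717 and 28732 in knockout ones. Idi1, the isomerase that makes the active isoprene unit, stood at 3755, 3876, 3127, 2443 and 5480 and at 2938, 6273, 5865, 4380 and 11433 in the same libraries. Sqle, the epoxidase that is a rate-limiting step of the later pathway, stood at 1510, 1536, 1360, 994 and 1914 and at 1009, 1845, 1924, 1603 and 3113. For each of these 3 genes, knockout liver 1 was at or near the bottom and knockout liver 5 at the top, so that the knockout group spanned nearly the whole wild-type range. The log2 differences were 0.40 ± 0.27 for Hmgcs1, 0.63 ± 0.27 for Idi1 and 0.31 ± 0.21 for Sqle, with limma adjusted p-values of 0.664, 0.402 and 0.664. Cyp51, the lanosterol demethylase, had 0.55 ± 0.22 (limma adjusted p = 0.334) and Pmvk 0.49 ± 0.22 (limma adjusted p = 0.425). Without knockout PCB-153 liver 5 the log2 differences were 0.17 for Hmgcs1, 0.37 for Idi1, 0.11 for Sqle, 0.35 for Cyp51 and 0.27 for Pmvk. Without liver 1 of that group they were 0.65 for Hmgcs1 and 0.52 for Sqle, and Sqle was at 0.18 without wild-type PCB-153 liver 4.

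**Figure D2:**
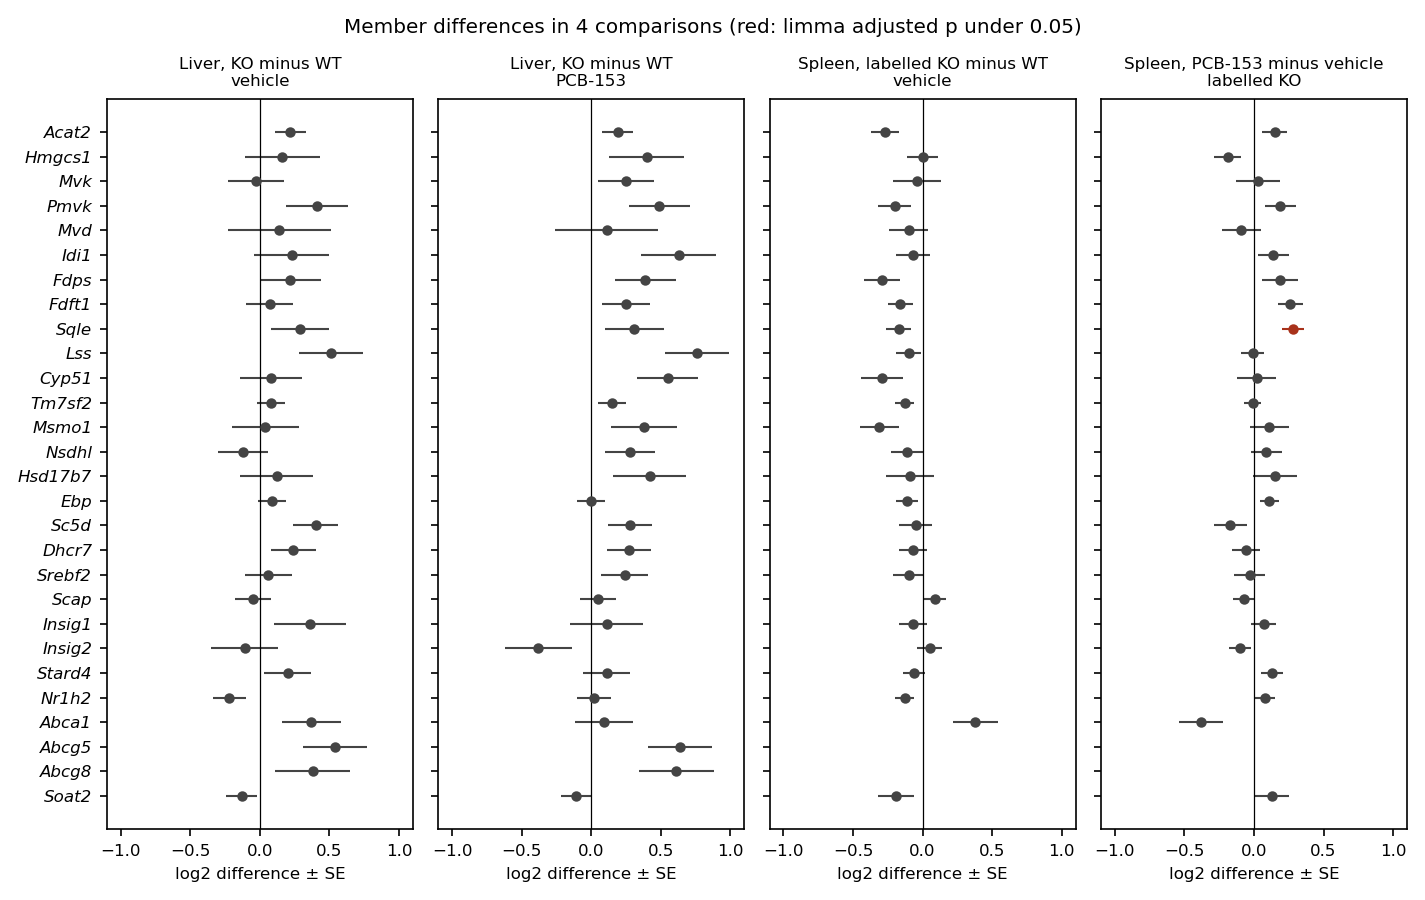
Log2 difference of each member with its standard error in 4 comparisons, on log2(normalised reads + 1), by limma; red marks an adjusted p under 0.05. In liver after PCB-153 no enzyme lies left of 0, in spleen under vehicle all 18 enzymes lie at or left of 0, and the only red point is Sqle in labelled-knockout spleens (0.28).

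The sensors and brakes of the pathway did not separate the groups. Srebf2 stood at 1326, 908, 846, 1124 and 1080 in wild-type vehicle livers, 959, 975, 1096, 785 and 1314 in wild-type PCB-153 livers, 1008, 1231, 795, 1310 and 1183 in knockout vehicle livers and 964, 1162, 1150, 1102 and 1711 in knockout PCB-153 livers. Insig1, itself a target of SREBP-2, stood in the same order of groups at 5110, 3924, 3492, 3681 and 6801, at 6915, 6719, 3231, 3151 and 4654, at 4407, 5719, 4853, 7347 and 6835, and at 3612, 4114, 4675, 5075 and 9235. Both genes were highest in knockout PCB-153 liver 5, and all groups overlapped. Insig2, whose liver transcript is known to be lowered by insulin, stood at 2262, 4000, 2243, 3162 and 4690, at 3260, 2897, 3193, 2809 and 2615, at 1796, 4352, 2382, 2386 and 4550, and at 2429, 1470, 2689, 2383 and 2568. The knockout PCB-153 livers had the lowest mean of Insig2 (2308 ± 483, n = 5) and did not exceed 2689, but they overlapped with each of the other groups. Scap had log2 differences of -0.05 ± 0.13 under vehicle and 0.05 ± 0.13 after PCB-153 between genotypes.

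The canalicular exporters also had higher means in knockout livers. Abcg5 (chr17:84658234-84683011) stood at 1830, 1630, 1205, 1711 and 1390 in wild-type vehicle livers, 1563, 1336, 1899, 1981 and 1316 in wild-type PCB-153 livers, 2839, 1436, 2757, 3238 and 1509 in knockout vehicle livers and 3251, 2580, 2725, 2950 and 1424 in knockout PCB-153 livers. Knockout livers 1, 3 and 4 under vehicle and 1 to 4 after PCB-153 were above every wild-type liver, and the other 3 knockout livers lay inside the wild-type range. The log2 difference between genotypes was 0.54 ± 0.23 under vehicle and 0.64 ± 0.23 after PCB-153, with limma adjusted p-values of 0.338 and 0.253. Over the alternatives the second ran from 0.0514 to 0.534, the lowest being without knockout PCB-153 liver 5.

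Abcg8 (chr17:84676302-84700333), which lies head to head with Abcg5, stood at 2154, 1681, 1028, 1903 and 1336, at 1089, 1040, 2146, 1784 and 1352, at 2746, 1412, 2246, 3010 and 1363, and at 2952, 1940, 2640, 2625 and 1229 in the same 4 groups. The same 3 knockout livers as for Abcg5 were the lowest of their groups. The log2 differences between genotypes were 0.38 ± 0.27 under vehicle and 0.61 ± 0.27 after PCB-153 (limma adjusted p = 0.580 and 0.418). The first was 0.23 without wild-type vehicle liver 3 and 0.24 without knockout vehicle liver 4. The annotated spans of Abcg5 and Abcg8 overlap on opposite strands, and no source used here says whether counting used strand, so reads in the overlap may be shared.

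**Figure D3:**
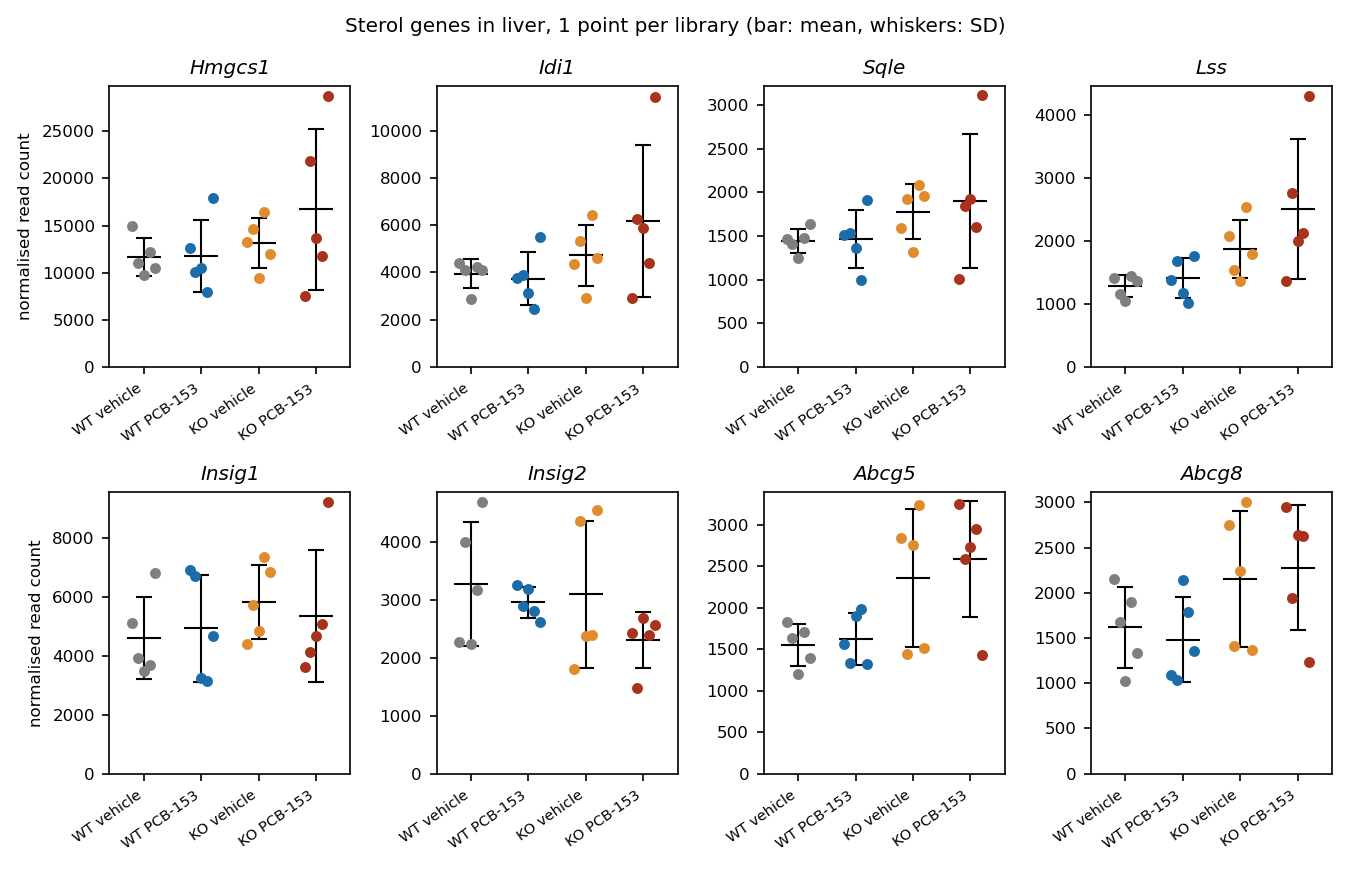
Normalised read counts of 4 synthesis enzymes, the 2 INSIG genes and the 2 canalicular exporters in every liver library (1 point each), with group mean and SD; WT is wild type and KO knockout. The enzymes spread most in the knockout PCB-153 group (Idi1 from 2938 to 11433), while 7 of the 10 knockout livers lie above all wild-type livers for Abcg5.

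PCB-153 against vehicle was compared within each genotype in liver. In wild type the means of 14 of 28 members were higher and 14 lower, with a median log2 difference of -0.00, against 48.7% higher and -0.01 for all genes. Of the members, 10 were higher without vehicle liver 3 and 20 without PCB-153 liver 4. Here limma called 0 members and 0% of all genes, 0 members had an unadjusted p under 0.05, where 6.69% of all genes did, and edgeR and DESeq2 called 0 members. The smallest p-value was that of Hsd17b7, a reductase of the late pathway, which stood at 866, 847, 499, 796 and 966 under vehicle and at 741, 679, 552, 407 and 826 after PCB-153 (-0.32 ± 0.26, limma adjusted p = 0.742). Soat2 stood at 1010, 767, 1075, 962 and 782 and at 917, 916, 1177, 985 and 982 (0.12 ± 0.11), and the squalene synthase gene Fdft1 at 3561, 2865, 3144, 3075 and 2944 and at 3424, 4008, 3281, 3017 and 3980 (0.18 ± 0.17). The groups overlapped for all 3. The difference of Hsd17b7 was -0.16 without wild-type PCB-153 liver 4, and that of Soat2 was 0.06 or 0.07 without wild-type vehicle liver 2 or 5 or PCB-153 liver 3.

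In knockout livers 20 of 28 members had a higher mean after PCB-153, with a median log2 difference of 0.11, against 49.5% and -0.00 for all genes. As between genotypes, these directions are not independent of each other. Without knockout PCB-153 liver 5 the count was 15 of 28 with a median of 0.02. The median was 0.19 without liver 1 of that group or without vehicle liver 4, and 0.07 without vehicle liver 3. limma called 0 members and 0% of all genes, 3 members (10.7%) had an unadjusted p under 0.05, where 9.85% of all genes did, and edgeR and DESeq2 called 0 members. Abca1, which loads cholesterol onto lipoproteins, stood at 1607, 2425, 1523, 1673 and 1787 in knockout vehicle livers and at 1068, 1146, 1043, 1261 and 2028 in knockout PCB-153 livers. Only liver 5 of the exposed group reached the vehicle group. The log2 difference was -0.49 ± 0.21 (limma adjusted p = 0.489). Nr1h2 stood at 487, 433, 484, 511 and 484 under vehicle and at 653, 696, 504, 567 and 563 after PCB-153, with only liver 3 of the exposed group inside the vehicle range (0.31 ± 0.12, limma adjusted p = 0.434). The mevalonate kinase gene Mvk stood at 516, 526, 341, 711 and 522 and at 408, 889, 653, 600 and 1067, which overlap (0.43 ± 0.20, limma adjusted p = 0.501), with a difference of 0.28 without vehicle liver 3 and 0.27 without PCB-153 liver 5. In these knockout livers Soat2 was at 917, 699, 910, 833 and 810 under vehicle and at 944, 1032, 845, 948 and 852 after PCB-153. The difference between the 2 exposure effects, tested as an interaction, gave 0 called members and 0% of all genes by limma, 0 members with an unadjusted p under 0.05, where 2.69% of all genes had one, and 0 by edgeR and DESeq2. Its smallest p-values were those of Nsdhl (0.40 ± 0.26), a dehydrogenase of the late pathway, Cyp51 (0.47 ± 0.31) and Nr1h2 (0.23 ± 0.16). Nsdhl stood at 2369, 1568, 1576, 1571 and 1563 in wild-type vehicle livers, 1456, 1743, 1630, 1460 and 1477 in wild-type PCB-153 livers, 1541, 1514, 1388, 1825 and 1577 in knockout vehicle livers and 1162, 2300, 1867, 1522 and 3050 in knockout PCB-153 livers. Cyp51 stood in the same order of groups at 3658, 2916, 2505, 3245 and 3156, at 3016, 2980, 2766, 2145 and 3815, at 3271, 3284, 2395, 4237 and 3331, and at 2393, 4873, 4625, 3413 and 7374. For both, knockout PCB-153 livers 2 and 5 lay high and liver 1 low, and without liver 5 the interactions were 0.22 and 0.27.

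The members also varied widely between livers of a group. The residual SD on the log2 scale had a median of 0.37 over the members and 0.28 over all genes in liver, while in spleen these were 0.18 and 0.20. The ranges over the 20 livers were 288 to 1407 normalised reads for the decarboxylase gene Mvd, 597 to 2231 for Pmvk, 3913 to 12541 for Fdps, the farnesyl diphosphate synthase gene, 2046 to 6286 for Msmo1 and 1639 to 3619 for Dhcr7, the reductase gene of the last step. They were narrower for the C14 sterol reductase gene Tm7sf2 (2251 to 3437), Ebp (3194 to 4950), Scap (1798 to 2977) and Stard4 (1096 to 2284), a carrier of sterols between membranes. The residual SD was largest for Mvd (0.66, with 5.54% of genes higher) and smallest for Tm7sf2 (0.14) and Ebp (0.15). In some livers the enzymes deviated together from their means over the 20 livers. Knockout PCB-153 liver 5 held the highest value over all livers of 17 of the 18 enzymes, the exception being Ebp. All 18 were above their means there, with a median deviation of 0.95, in liver 2 of that group all 18 with 0.50, and in knockout vehicle liver 4 all 18 with 0.36. In knockout PCB-153 liver 1 none of the 18 was above its mean, with a median of -0.48, and in wild-type PCB-153 liver 4 only 2 were, also with -0.48. Knockout PCB-153 liver 5 was also the deepest liver library, with 28.65 M reads, where the others had at most 21.88 M reads, and the part of depth was not tested. Its Alb, at 1651868, lay within the range of the other 4 livers of its group, 1288324 to 1842946.

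**Figure D4:**
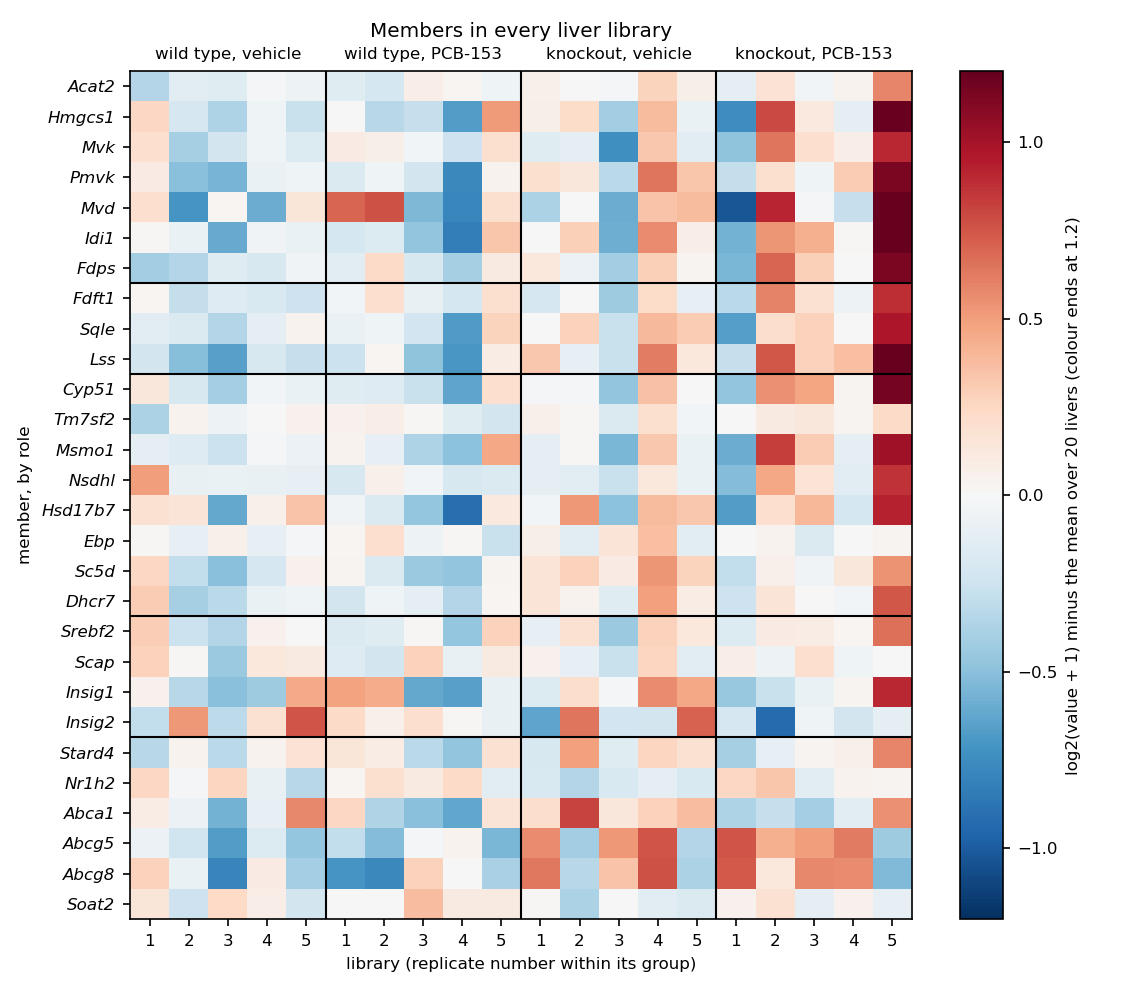
Log2(normalised reads + 1) of each member in each of the 20 livers, as the difference from its mean over the livers (red higher, blue lower), with members grouped by role and libraries by group. Knockout PCB-153 livers 5 and 2 and knockout vehicle liver 4 are red over all 18 enzymes (median deviations 0.95, 0.50 and 0.36), while Insig2 is below its mean in all 3, and Abcg5 and Abcg8 are above theirs in the latter 2 and below in liver 5.

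How far the members varied together was measured as the correlation with Sqle over the 20 livers, after the mean of each group had been removed so that group differences could not carry it. Of the other 27 members, 17 passed a two-sided permutation test at 0.05 after Benjamini-Hochberg adjustment over all genes tested, each with a positive r, where 4.54% of all genes passed in either direction. Adjusted over the 27 relations, 19 passed, the 2 more being Nsdhl and Abcg5. The median r was 0.79 over the members and 0.85 over the synthesis enzymes, against -0.00 over the 16154 other genes tested, and 15 of the 27 members were within the top 1% of genes by r. Idi1 was nearest to Sqle of all genes (Pearson r = 0.96, Spearman rho = 0.84, permutation p = 1.00e-05 and 0.000160, the first being the smallest the permutations can give, and 0.0147 for r after adjustment over all genes). For Idi1 r was 0.93 without knockout PCB-153 liver 5 and wild-type PCB-153 liver 4, the 2 livers farthest from the median. Next among the members were Cyp51 (r = 0.95, rho = 0.83), Hsd17b7 (0.94, 0.93), Msmo1 (0.90, 0.86) and Hmgcs1 (0.88, 0.70), which without those 2 livers had r of 0.92, 0.90, 0.87 and 0.79. Adjusted over the 27 relations, 17 passed without the 2 livers and 20 with the group means kept.

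The regulators and transporters divided in this measure. Srebf2 (r = 0.84, rho = 0.82), Insig1 (0.73, 0.75), Stard4 (0.84, 0.85) and Abca1 (0.68, 0.69) passed over all genes (permutation adjusted p from 0.0162 for Srebf2 to 0.0416 for Abca1), and without the 2 outlying livers their r was 0.72, 0.50, 0.72 and 0.45. Abcg5 had the most negative r (r = -0.61, rho = -0.58, unadjusted permutation p = 0.0155 and 0.0210), which did not pass over all genes (adjusted p = 0.117 by permutation), and r was -0.34 without the 2 outlying livers and -0.17 with the group means kept. Among the enzymes, Ebp (r = -0.14), Tm7sf2 (0.39), Acat2 (0.57) and Nsdhl (0.72) did not pass over all genes, and neither did Scap (0.21), Insig2 (0.21), Nr1h2 (-0.44), Abcg8 (-0.49) or Soat2 (-0.37). All members of a library share its depth and normalisation. In spleen 0 of 25 members passed by either adjustment, as did 0% of all genes, with a median r of 0.34 over the members against 0.01 over all genes. The unadjusted permutation p was under 0.05 for 8 of the 25, and for 15.0% of all genes. Idi1 (r = 0.66, rho = 0.67), Fdps (0.65, 0.63), Sc5d (0.64, 0.54), Pmvk (0.61, 0.57) and Acat2 (0.54, 0.67) had the smallest, with unadjusted permutation p-values of 0.00748 to 0.0104.

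**Figure D5:**
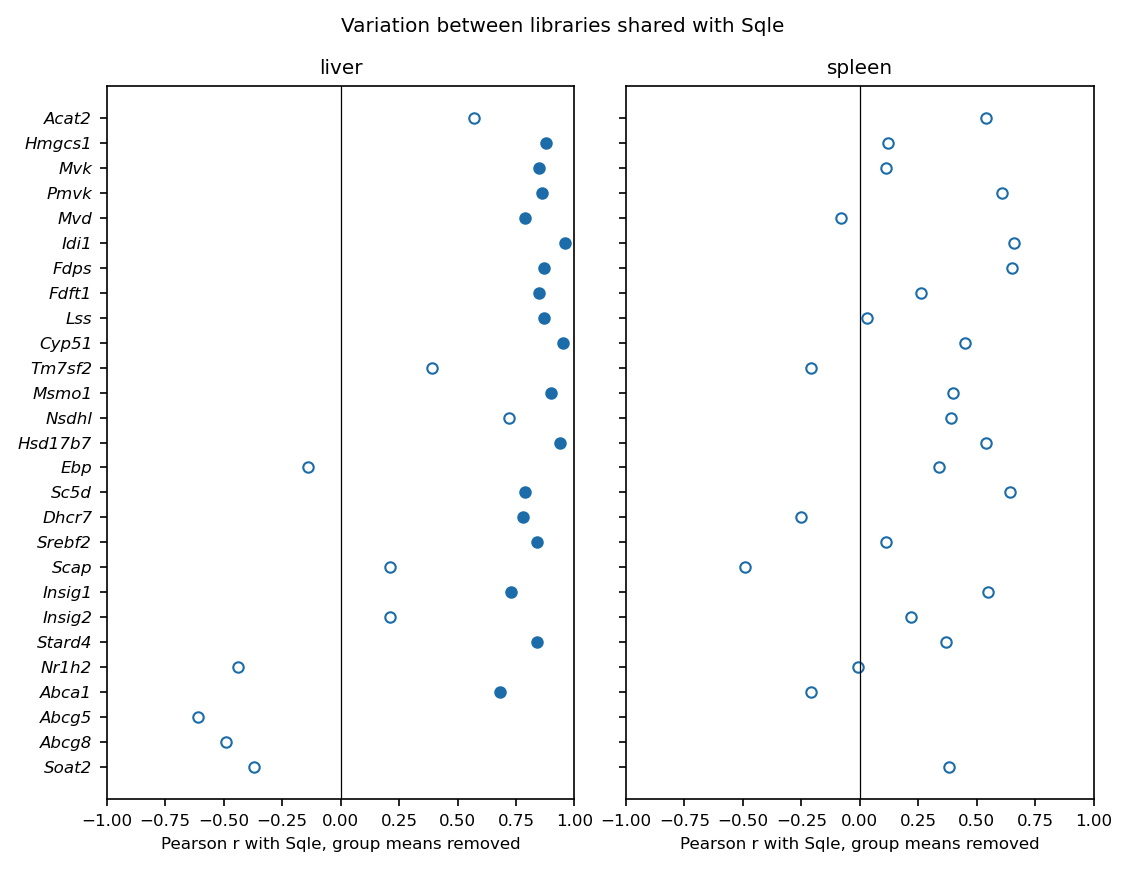
Pearson correlation of each member with Sqle over 20 livers (left) and 19 spleens (right), on log2 values with the group means removed; filled points passed a permutation test at 0.05 with adjustment over all genes. In liver 17 of 27 members are filled, all at 0.68 or above, the most negative open one is Abcg5 at -0.61, and in spleen none of 25 is filled.

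In spleen 26 members were tested, since Abcg5 and Abcg8 did not reach a mean of 10. PCB-153 against vehicle in labelled knockout was the only comparison in either tissue in which limma called a member. Sqle (chr15:59315077-59331192) stood at 297, 283, 316, 348 and 316 normalised reads in labelled-knockout vehicle spleens 1 to 5 and at 377, 351, 400, 386 and 386 after PCB-153. It rose by a log2 difference of 0.28 ± 0.08 (SE, limma adjusted p = 0.0479), and the groups did not overlap, as was the case in that direction for 1.82% of all genes. This is 1 of 26 members called (none lower), where 5.30% of all genes were called. The call was near the threshold: over 20 alternatives the adjusted p ran from 0.0160 to 0.334, and it passed in 7 of them. It did not pass without vehicle spleens 1, 2, 3, 4 or 5 or PCB-153 spleens 1, 3 or 4, taken singly, and it was 0.334 without the 5 spleens that carried liver or pancreas RNA, at a log2 difference of 0.32. In wild-type spleens Sqle stood at 340, 397, 327 and 343 under vehicle and at 426, 412, 323, 367 and 364 after PCB-153, which overlap (0.10 ± 0.09, limma adjusted p = 0.943), and the interaction was 0.18 ± 0.12 (limma adjusted p = 0.626).

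Fdft1, which makes squalene one step before SQLE, was next, at 608, 522, 489, 532 and 518 under vehicle and 685, 551, 696, 640 and 621 after PCB-153, with the groups overlapping at vehicle spleen 1. Its log2 difference was 0.26 ± 0.09 (limma adjusted p = 0.0811). DESeq2 called both Sqle (0.28, adjusted p = 0.0187) and Fdft1 (0.26, adjusted p = 0.0394), where it called 12.4% of the genes it tested, and the authors' deposited table gives the same values for them. Fdft1 overlaps Ctsb, an abundant protease gene of macrophages, on the other strand, and 26.5% of its 50-base words also occur in another gene, so its count is uncertain. Acat2, for which the same caution holds, was called with Sqle and Fdft1 (adjusted p = 0.0453, limma) when labelled-knockout PCB-153 spleen 2 was left out.

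In that comparison 16 of 26 members had a higher mean, with a median log2 difference of 0.08, against 48.7% of all genes. Without the 5 spleens with RNA of other organs it was 24 of 26 with a median of 0.13, and without exposed spleen 5 it was 14 of 26 with a median of 0.03. Abca1 stood at 1371, 1427, 1238, 1159 and 1296 under vehicle and at 845, 1146, 889, 887 and 1274 after PCB-153, a log2 difference of -0.38 ± 0.16 (limma adjusted p = 0.138), and its groups overlapped only through exposed spleen 5. Markers of other cells also differed between these groups. The summed erythroid markers (4 of 4 detected) were 88884 to 104200 after PCB-153 and 57018 to 84809 under vehicle, and the summed B and T cell markers (5 of 5) 17420 to 28812 and 29375 to 36656. The pancreatic markers reached 37766 in the exposed group and 626 under vehicle. The part of these cell types in the result for Sqle was not tested.

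The same vehicle spleens entered the comparison of genotypes under vehicle. There all 18 synthesis enzymes had a lower mean in labelled knockout and 3 of 26 members a higher one, with a median log2 difference of -0.10, against 51.8% higher and 0.01 for all genes. In labelled-knockout vehicle spleens 1 to 5, the enzymes above their means over all spleens numbered 4, 3, 4, 9 and 12 of 18. The directions of the enzymes are therefore not taken as independent of each other. limma called 0 of 26 members, where 0.0315% of all genes were called, and 4 (15.4%) had an unadjusted p under 0.05, where 10.5% of all genes did, and edgeR and DESeq2 called 0. Over the alternatives, 0 to 2 of the 18 enzymes had a higher mean. Acat2 stood at 518, 554, 493 and 573 in wild-type vehicle spleens 1, 3, 4 and 5 and at 376, 431, 499, 482 and 433 in labelled knockout, with 1 of the latter inside the wild-type range (-0.27 ± 0.10, limma adjusted p = 0.387). Abca1 had 0.38 ± 0.16 (limma adjusted p = 0.443) and Fdps -0.29 ± 0.13 (limma adjusted p = 0.464). Fdps stood at 483, 578, 452 and 554 in wild-type vehicle spleens and at 359, 359, 442, 443 and 523 in labelled knockout, overlapping through spleen 5 of the latter. The summed neutrophil markers (7 of 7 detected) were also apart between these groups, at 3127 to 4797 in labelled knockout and 5470 to 7316 in wild type, and their part in the lower enzyme means was not tested.

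After PCB-153, 15 of 26 members had a higher mean in labelled knockout, with a median log2 difference of 0.01, against 48.8% and -0.00 for all genes. It was 10 of 26 without wild-type spleen 3 (median -0.03) or spleen 4 (median -0.04), and 18 of 26 without the 5 spleens with RNA of other organs (median 0.07). limma called 0 of them and 0.157% of all genes, 0 had an unadjusted p under 0.05, where 10.9% of all genes did, and edgeR and DESeq2 called 0. The smallest p-values were those of Abca1 (-0.27 ± 0.16), Fdft1 (0.14 ± 0.09) and Hmgcs1 (-0.15 ± 0.10). Hmgcs1 stood at 809, 727, 634, 645 and 630 in wild-type PCB-153 spleens and at 514, 738, 537, 564 and 784 in labelled knockout. Without the 5 spleens with RNA of other organs the log2 differences were -0.07 for Abca1, 0.09 for Fdft1 and 0.04 for Hmgcs1, and that of Hmgcs1 ran from -0.24 to -0.08 with single spleens left out. In wild-type spleens PCB-153 against vehicle gave a higher mean for 5 of 26 members, with a median of -0.06, against 52.3% and 0.01 for all genes. limma called 0 members and 0% of all genes, 0 had an unadjusted p under 0.05, where 3.81% of all genes did, and edgeR and DESeq2 called 0. Mvd stood at 239, 184, 187 and 219 under vehicle and at 168, 185, 158, 185 and 173 after PCB-153, with the groups overlapping only between 184 and 185 (-0.25 ± 0.14, limma adjusted p = 0.943, and -0.16 without the 5 spleens).

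The interaction in spleen was above 0 for 22 of 26 members, with a median of 0.13, where 49.1% of all genes were above 0 and their median was -0.01. It was above 0 for 25 of 26 members, with a median of 0.20, without the 5 spleens with RNA of other organs. Those include labelled-knockout PCB-153 spleens 1 and 4. The interaction uses the same labelled-knockout vehicle spleens as the comparisons with that group above, so it is not separate evidence. limma called 0 members and 0% of all genes, 2 members (7.69%) had an unadjusted p under 0.05, where 9.85% of all genes did, and edgeR and DESeq2 called 0. Abca1 had the smallest p. Its mean was 1020 ± 284 (n = 4) and 1224 ± 238 (n = 5) in wild-type spleens without and with PCB-153 and 1298 ± 106 and 1008 ± 190 (n = 5 each) in labelled knockout, so that the exposed mean was the higher one in wild type and the lower one in labelled knockout (interaction -0.66 ± 0.23, limma adjusted p = 0.432). Fdft1 had 0.30 ± 0.13 and Nr1h2, at 1183 to 1527 over all spleens, 0.19 ± 0.10.

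Other genes of sterol handling were followed as a second list of 30, of which 29 were found by symbol. In liver 0 of the 28 tested passed limma in any of the 5 comparisons, where up to 1.45% of all genes passed. Between 2 and 7 had an unadjusted p under 0.05 by limma, and edgeR called 0. Between genotypes these were 25.0% under vehicle and 14.3% after PCB-153, where 12.6% and 10.7% of all genes had one. For PCB-153 against vehicle they were 7.14% in wild type and 21.4% in knockout, where 6.69% and 9.85% of all genes had one. For the interaction they were 7.14%, against 2.69% of all genes. DESeq2 called 1 in each comparison of genotypes, where it called 255 and 362 of the 16155 genes under vehicle and after PCB-153. In spleen 1 of 29 passed in any comparison, in one where 5.30% of all genes passed. This was Soat1, which esterifies cholesterol in macrophages and most other cells. It fell after PCB-153 in labelled knockout, to 721 ± 132 from 923 ± 38.7 (n = 5 each), a log2 difference of -0.37 ± 0.11 (limma adjusted p = 0.0459). In that comparison edgeR called 0 of the 29 and DESeq2 called 3, where they called 982 and 2027 of the 19058 genes. In the neighbouring pathway of fatty acid synthesis, 15 genes were followed and 2 passed, 1 of 15 tested in liver and 1 of 14 in spleen, in comparisons where 0.607% and 5.30% of all genes passed. In vehicle livers 12 of the 15 had a higher mean in knockout, with a median log2 difference of 0.44. By limma 40.0% had an unadjusted p under 0.05, where 12.6% of all genes did. In knockout livers 14 of the 15 had a lower mean after PCB-153, with a median of -0.41. There 26.7% had an unadjusted limma p under 0.05, against 9.85% of all genes, and DESeq2 called 2, against 61 of 16155 genes. Pnpla3, a lipid droplet enzyme under SREBP-1 control, rose in knockout vehicle livers (77.4 ± 40.2 against 19.8 ± 15.9, n = 5 each), with a log2 difference of 2.11 ± 0.47 (limma adjusted p = 0.0443). There edgeR called 0 of the 15 and DESeq2 called 1, where they called 98 and 255 of all genes. The desaturase gene Scd1 fell after PCB-153 in labelled-knockout spleens (4313 ± 591 against 5705 ± 830, n = 5 each), with a log2 difference of -0.40 ± 0.11 (limma adjusted p = 0.0388). There edgeR and DESeq2 each called 1 of the 14. The calls in these lists were not repeated with single libraries, or the spleens with RNA of other organs, left out.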

How the data were processed

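The authors deposited, for each tissue, a signal table of read counts divided by 1 size factor per library, and tables of their own comparisons that hold log2 fold changes with p-values. The submitters' processing notes list DESeq2 (as version 3.8), featureCounts, STAR (2.6.0), FastQC and build mm10 without options. The labels name 2 versions of the library kit, 1 of them stranded. In every library 100% of values above 0 were whole multiples of 1 read within 0.05, so reads were recovered.

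Genes with a mean of at least 10 were tested on log2(value + 1), a scale that understates changes of low genes, with limma 3.58.1 (trend) in R 4.3.3, in 1 two-sided fit of 4 groups per tissue, with Benjamini-Hochberg adjustment over all genes. A member is called at an adjusted p under 0.05, and "rose" and "fell" are used only of called genes. edgeR 4.0.16 (quasi-likelihood, TMM) and DESeq2 1.42.0 were run on recovered reads. The fit was tested on simulated data. Correlations used 100000 permutations within groups, with adjustment over all genes added after the data were seen, the smallest possible p being 1.00e-05. Lengths, overlaps and shared 50-base words are from GENCODE M21, and promoters from RefSeq GRCm38.p6. Replicates were not duplicates of each other (lowest chi-square per degree of freedom 9.98 among livers, 4.67 among spleens).

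The members, the lists and the tests were chosen with earlier results of these data known. Values per library are given for Sqle, Idi1, Hmgcs1, Srebf2, Insig1, Insig2, Abca1, Abcg5, Abcg8 and Soat2 in liver, called members, and the 2 or 3 members of smallest p per comparison, the rest by range or difference. Certain other genes of the pathway are not reported here.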

Additional observations from a re-analysis of the deposited data

Results flagged for a closer look

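In 11 of 216 groups of 4 or 5 libraries, 1 library of a member stood far from the others of its group, a gap that chance gives in about 1 in 20 groups. In liver, 3 of these were in knockout PCB-153 liver 5, where Srebf2 was at 1711 (others 964 to 1162), Insig1 at 9235 (3612 to 5075) and Abca1 at 2028 (1043 to 1261). In the same group Ebp was at 3422 in liver 3 (3841 to 3972) and Insig2 at 1470 in liver 2 (2383 to 2689). Acat2 was at 5418 in knockout vehicle liver 4 (4450 to 4723), and Soat2 was at 1177 in wild-type PCB-153 liver 3 (916 to 985). Among wild-type vehicle livers, Idi1 was at 2866 in liver 3 (4105 to 4387) and Nsdhl at 2369 in liver 1 (1563 to 1576). In spleen, Hmgcs1 was at 652 in labelled-knockout vehicle spleen 4 (707 to 726), and Stard4 was at 577 in wild-type vehicle spleen 5 (687 to 708).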

How the results depend on the processing

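The count of called members was within 1.5 times its reported value in 197 of 213 alternative fits. It was reported as 0 in every comparison but PCB-153 against vehicle in labelled-knockout spleens, so most of these fits only repeat a count of 0. In liver after PCB-153 it was 1 (Lss) by DESeq2, and 0 to 1 with each library left out. In labelled-knockout spleens, PCB-153 against vehicle, it was 0 with no filter on low values, in the fit of the compared groups only, by edgeR and, chosen after seeing the data, without the 5 spleens with liver or pancreas RNA. It was 2 by DESeq2 and 0 to 3 with each library left out. Without labelled-knockout vehicle spleen 1 it counted Fdft1 and not Sqle. With the replicate block it was also 0, and the block changed no other call. Same-numbered libraries correlated above 0.1 in 9 of 20 liver pairs (-0.38 to 0.40) and 7 of 18 spleen pairs (-0.19 to 0.27). These correlations cannot tell whether a replicate number stands for a shared litter or batch. With the block, the limma adjusted p of Abcg5 between genotypes after PCB-153 in liver was 0.0760, against 0.253 without it. The number of members that passed for correlation with Sqle in spleen was 4 with group means kept, adjusted over the 25 relations. Of the single values, 739 kept direction and side of the threshold, 5 gained and 13 lost a call, and 1 changed sign, Hmgcs1 in PCB-153 spleens between genotypes (0.04 without the 5 spleens). The cause of these changes was not tested. Leaving out knockout PCB-153 livers 1 and 5 together was also chosen after seeing the data. All members but Abcg5 and Abcg8 in spleen passed the filter on low values. Standard errors in liver were 0.21 to 0.27 for Sqle, Lss, Hmgcs1 and Idi1, and the part of depth in the results was not tested.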
